A study of Mus musculus with 9 samples.

Results

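Tmem100, a small transmembrane protein gene, and 9 genes of the BMP–ALK1 signalling pathway were followed in mouse gastrocnemius, a calf muscle, through the removal and return of weight bearing. The 10 genes were taken by symbol (Tmem100, Bmp4, Acvrl1, Bmpr2, Eng, Id1, Id2, Id3, Smad6 and Smad7) out of 55487 genes in the count table, and all 10 were among the 14851 genes that passed the filter on low counts. Tmem100 was selected on its measured rise on Unloading and fall on Reloading in these same libraries. Its values are therefore a description, given without a test, while the other genes were read with p-values adjusted over all 14851 genes.

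RNA-seq of polyadenylated RNA was available for 4 Control muscles from mice with normal cage movement, 2 Unloading muscles after 10 days of hindlimb unloading, in which a line at the tail keeps the hindquarters off the ground, and 3 Reloading muscles from mice returned to normal cage activity for 1 day after those 10 days. Per the labels, mice of all groups were wild-type C57BL/6 males (the study's text names C57BL/6J and describes females for the suspension procedure). In every library the Y-linked gene Ddx3y had at least 1013 counts and Xist at most 5. Ages are not given in the sources used here. The labels do not tie libraries to named animals, so p-values measure the spread between these libraries. Library totals ran from 9252443 to 19612101 read pairs in genes, and 5 muscle fibre genes (Acta1, Ckm, Myh4, Ttn and Mylpf) together held between 92718 and 136853 counts per 1000000 (CPM). Control 2 and Reloading 1 stood apart in 4 keratin genes of skin, with summed levels of 217 and 109 CPM against 2.17 to 3.95 CPM in the other 7 libraries, and the members' fold changes are also given without that pair.

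Bone morphogenetic proteins (BMPs) are secreted ligands that bring together a type I and a type II receptor on the cell surface. In endothelium the type I receptor is ALK1, encoded by Acvrl1, which works with the type II receptor Bmpr2 and the co-receptor endoglin, encoded by Eng. The activated receptors phosphorylate Smad1, Smad5 and Smad9, which with Smad4 switch on the Id genes and the inhibitory Smads, Smad6 and Smad7. ALK1 signalling is best known for its part in keeping arteries and veins apart, and Tmem100 is known as a target of ALK1 in endothelium.

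Promoter sequence from RefSeq on build GRCm38.p6 (250 bases before the annotated start and 50 after it) was matched for 6 of the 10 genes, namely Bmp4, Bmpr2, Eng, Id2, Id3 and Smad6. Sequences are shown for Eng and Id3, which rose on Reloading, for Bmpr2, which fell, for Id2, whose rise was small, and for Smad6, which did not pass the test, because Smad proteins are known to bind the short box GTCT (AGAC on the other strand) and GC-rich stretches such as GGCGCC. Letters were searched on both strands. The box is common, occurring in 88.0% of 32851 promoter windows of the same length, and the palindrome GTCTAGAC, which is 2 boxes back to back, in 0.213%. GGCGCC occurred in 11.9%. Capitals mark the letters searched, and the window before the start is printed whole for Eng. Those of Bmpr2, Id3 and in part Id2 lie in exons that were counted, so short stretches are shown, and for Smad6 the stretch across the start that holds the palindrome.
Eng, the whole 250 bases before the start, chr2:32646345-32646594, plus strand, boxes in capitals: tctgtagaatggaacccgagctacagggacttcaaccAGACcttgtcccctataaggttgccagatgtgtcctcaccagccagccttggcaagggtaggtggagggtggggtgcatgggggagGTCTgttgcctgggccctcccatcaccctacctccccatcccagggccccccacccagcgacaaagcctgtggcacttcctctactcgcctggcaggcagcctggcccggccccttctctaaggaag
Smad6, 30 bases across the start, chr9:64022045-64022074, minus strand, palindrome in capitals: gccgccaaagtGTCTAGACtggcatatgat
Id3, 30 bases, chr4:136143741-136143770, plus strand, box in capitals: tggacccttggcgGTCTgttttgaataagg
Id2, 30 bases, chr12:25096306-25096335, minus strand, GGCGCC in capitals: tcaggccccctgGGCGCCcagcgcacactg
Bmpr2, 30 bases, chr1:59764162-59764191, plus strand, GGCGCC in capitals: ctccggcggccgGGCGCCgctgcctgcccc
Counted from the annotated start, the Eng boxes began at -213 and -127, and the Smad6 palindrome at -4. GGCGCC began at -231 in Id2 and at -105 in Bmpr2. Among the 6 windows the palindrome was found in that of Smad6, and GGCGCC in those of Id2 and Bmpr2. The box was not found in the Bmpr2 window, and in the Bmp4 window it began at -222 and 36. These are matches of letters, and binding was not measured.

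Tmem100 (ENSMUSG00000069763, chromosome 11, 90030348 to 90036508, plus strand, GRCm38) was high in the Unloading muscles and close to its Control level in the Reloading muscles. Counts in Control 1 to 4 were 103, 131, 170 and 150, which correspond to 11.6, 10.9, 12.1 and 12.9 CPM after scaling. Both Unloading libraries held 740 counts, or 55.4 and 40.4 CPM. Reloading 1 to 3 held 133, 186 and 265 counts, or 10.7, 13.5 and 17.6 CPM. Both Unloading libraries thus stood above all 7 others, and the Reloading values overlapped those of Control.

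The mean level of Tmem100 in Control was 11.9 ± 0.849 CPM (SD, n = 4), that in the 2 Unloading libraries 47.9 ± 10.6 CPM and that in the 3 Reloading libraries 13.9 ± 3.44 CPM. The log2 fold change was 2.01 ± 0.15 (SE) for Unloading against Control, a 4.02-fold higher level that ranked 8 among the rises of all 14851 genes. For Reloading against Unloading it was -1.77 ± 0.16, a 3.41-fold lower level that ranked 31 among the falls. Both ranks describe the pattern for which Tmem100 was selected. Reloading differed from Control by 0.24 ± 0.16. Over 18 alternative analyses the first difference stayed between 1.77 and 2.22 and the second between -1.99 and -1.53. These ranges and the SE rest on the same libraries that selected Tmem100 and are not a test of its pattern. The fibro-adipogenic markers Pdgfra and Dcn and the pericyte marker Rgs5 also rose on Unloading and fell on Reloading, by smaller amounts. Their log2 changes were 0.63, 0.59 and 0.27, then -0.62, -0.49 and -0.29. Other markers of the same lists did not follow this pattern, and Col1a1 went the other way (-1.07, then 1.68). In Reloading against Unloading, 2 of 5 fibro-adipogenic markers rose and 2 fell. Of 8 smooth muscle and pericyte markers, 7 rose and 1 fell. The part of these cell types in the Tmem100 values was not tested. In whole muscle, a change in the number of cells that express a gene and a change in RNA per cell cannot be told apart.

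**Figure D1:**
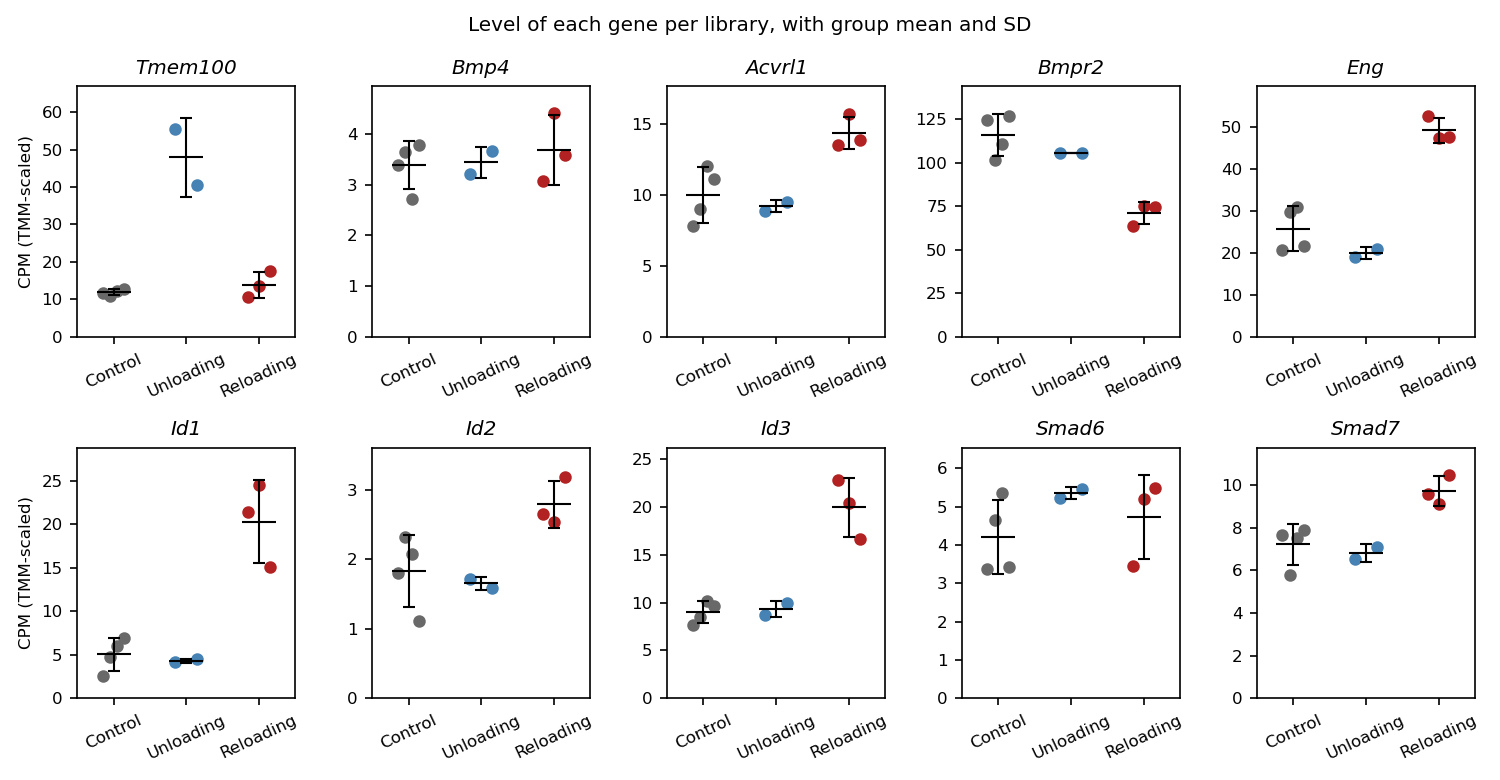
Level of each gene in CPM (TMM-scaled, linear axis from 0) in every library, with points coloured by group (4 Control, 2 Unloading and 3 Reloading libraries) and black bars for the group mean and SD. Tmem100 stands at 40.4 and 55.4 CPM in Unloading and at no more than 17.6 CPM elsewhere, whereas Acvrl1, Eng, Id1, Id2, Id3 and Smad7 are highest in Reloading and Bmpr2 is lowest there.

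The other 9 genes differed less between Unloading and Control, with log2 fold changes between -0.37 and 0.33, and their difference from Tmem100 was not tested. In this comparison 0 of the 9 passed (adjusted p under 0.05, quasi-likelihood F-test of edgeR), beside 9.90% of all tested genes (4.40% higher and 5.50% lower). At an unadjusted p under 0.05 the count was 1, namely Eng, and DESeq2 also gave 0. In Reloading against Unloading 7 of the 9 passed, 6 higher and 1 lower, against 37.5% of all genes (18.5% higher and 19.0% lower). In Reloading against Control the same split of 6 and 1 was found, against 43.5% of all genes (22.1% higher and 21.3% lower). The even split of all calls holds for TMM scaling. With library totals, higher genes made up 82.8% of all calls against Unloading and 80.2% against Control, and 7 members (6 higher and 1 lower) passed in each. With the replicate block by description number, 4 members passed against Unloading (Eng, Id1, Id3 and Bmpr2) and 6 against Control. The median log2 fold change of the 9 genes was -0.13, 0.64 and 0.51 in these comparisons in turn, beside -0.0038, 0.026 and 0.013 over all tested genes. Both Reloading comparisons use the same Reloading libraries, so they are not independent of each other. Without Control 2 and Reloading 1, the members past the threshold numbered 6 in each Reloading comparison, with Id2 dropping out against Unloading and Smad7 against Control. Without that pair, log2 fold changes against Unloading and against Control were 0.68 and 0.49 for Acvrl1, -0.50 and -0.69 for Bmpr2, 1.25 and 0.95 for Eng, 2.19 and 1.88 for Id1 and 0.98 and 1.00 for Id3, all past the threshold. Tmem100 then stood 1.96 above Control in Unloading and at -1.62 in Reloading relative to Unloading.

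**Figure D2:**
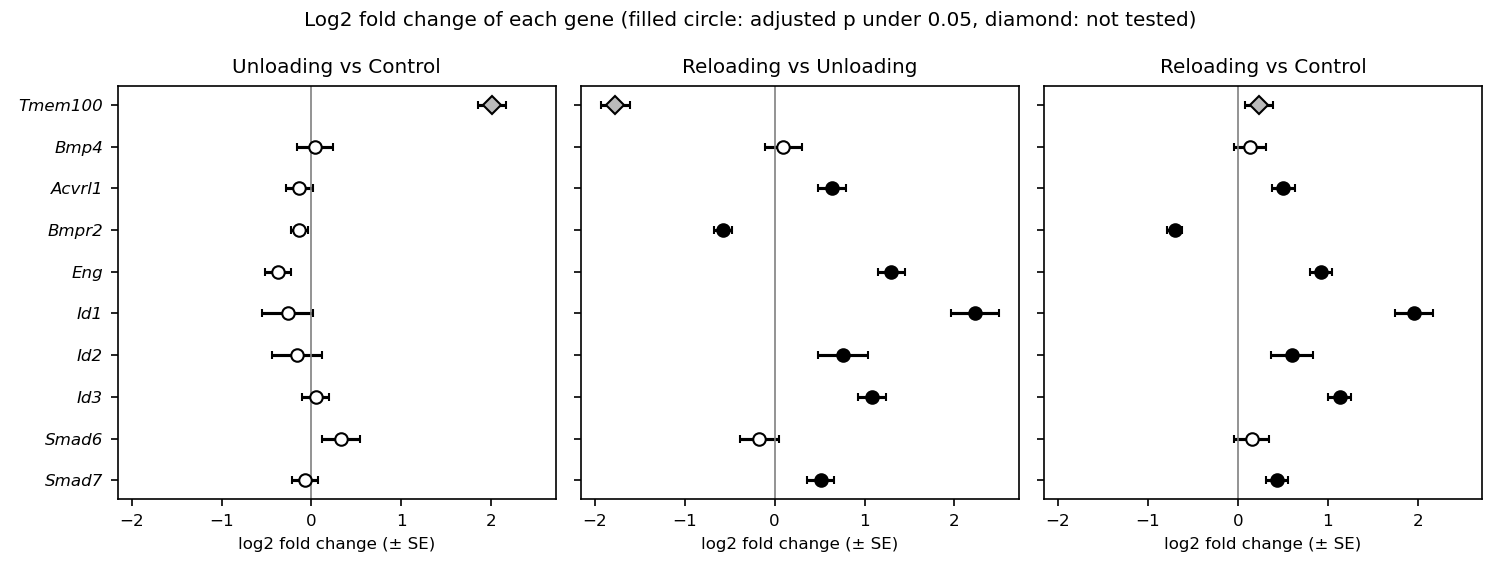
Log2 fold change (± SE) of each gene in the 3 comparisons, from 1 fit of all 9 libraries. Filled circles passed an adjusted p of 0.05 (edgeR quasi-likelihood F-test), open circles did not, and the grey diamond is Tmem100, which was not tested. In Unloading vs Control Tmem100 lies at 2.01 and the tested genes lie between -0.37 and 0.33, while in both Reloading comparisons 6 genes lie to the right of 0 and Bmpr2 to the left.

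Among the ligands, Bmp4 (chromosome 14, 46383520 to 46390669, minus strand), a BMP made by many mesenchymal and vascular cells, was low, and its group means differed by less than the spread within Control. It had 3.38, 3.65, 2.72 and 3.78 CPM in Control 1 to 4, 3.22 and 3.66 CPM in Unloading, and 3.06, 4.41 and 3.58 CPM in Reloading. The groups overlapped in every comparison. Its log2 fold changes were 0.04 ± 0.20 (adjusted p = 0.927) for Unloading against Control, 0.10 ± 0.21 (adjusted p = 0.745) for Reloading against Unloading and 0.13 ± 0.18 (adjusted p = 0.58) for Reloading against Control, all by edgeR. Gdf2, which encodes the high-affinity ALK1 ligand BMP9, had 0 counts in all 9 libraries, which allows up to 0.164 to 0.338 CPM per library at 3 counts. Bmp10, the other such ligand, had 1 count in 1 library. BMP9 and BMP10 are known to reach muscle in the blood, made by liver and heart.

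The receptors moved in opposite directions on Reloading. Acvrl1 (chromosome 15, 101128522 to 101145336, plus strand), the gene of ALK1, had 7.78, 9.04, 12.1 and 11.2 CPM in Control 1 to 4, 8.91 and 9.51 CPM in Unloading, and 13.5, 15.7 and 13.9 CPM in Reloading. All 3 Reloading values were above those of the other 6 libraries. It rose 1.56-fold against Unloading (log2 0.64 ± 0.16, adjusted p = 0.00519, edgeR) and 1.42-fold against Control (0.51 ± 0.13, adjusted p = 0.00604). With a replicate block by the number in the sample descriptions, the difference from Unloading was 0.38 and no longer passed (adjusted p = 0.0652).

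Eng (chromosome 2, 32646595 to 32682669, plus strand), whose protein endoglin presents ligand to ALK1, had 20.6, 29.8, 30.9 and 21.6 CPM in Control 1 to 4. In Unloading it had 18.9 and 21.0 CPM, and in Reloading 52.7, 47.4 and 47.7 CPM. The Reloading values were clear of all others, while the Unloading values overlapped the lower part of Control. Eng rose 2.46-fold against Unloading (log2 1.30 ± 0.15, adjusted p = 1.21e-05, edgeR) and 1.90-fold against Control (0.92 ± 0.12, adjusted p = 2.13e-05). Unloading against Control gave -0.37 ± 0.14 with an adjusted p of 0.117 (edgeR), which passed without Control 1 (-0.46, adjusted p = 0.048). Eng shares 61 bases with Fpgs on the opposite strand, and because counting ignored strand, reads there cannot be assigned between them.

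Bmpr2 (chromosome 1, 59763400 to 59879014, plus strand), the type II receptor, fell on Reloading. It had 125, 102, 111 and 127 CPM in Control 1 to 4, 106 CPM in both Unloading libraries, and 63.7, 75.1 and 74.6 CPM in Reloading. Every Reloading value was below every other value. The fall was 1.48-fold against Unloading (log2 -0.57 ± 0.10, adjusted p = 0.000458, edgeR) and 1.63-fold against Control (-0.70 ± 0.09, adjusted p = 1.25e-05). Unloading and Control overlapped, with a difference of -0.13 ± 0.10 (adjusted p = 0.412). With library totals in place of TMM, which shifts the median of all genes to 0.274, Bmpr2 stood at -0.32 against Unloading (adjusted p = 0.0173).

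The Id genes encode inhibitors of basic helix-loop-helix transcription factors and are the classical BMP targets, and their rise on Reloading was the largest among the members for Id1. Id1 (chromosome 2, 152736251 to 152737410, plus strand) had 2.59, 4.73, 6.00 and 6.95 CPM in Control 1 to 4, 4.12 and 4.48 CPM in Unloading, and 21.4, 24.4 and 15.1 CPM in Reloading. The lowest Reloading value was above the highest value elsewhere. Id1 rose 4.69-fold against Unloading (log2 2.23 ± 0.27, adjusted p = 1.71e-05, edgeR) and 3.90-fold against Control (1.96 ± 0.21, adjusted p = 3.96e-06), with -0.27 ± 0.28 for Unloading against Control (adjusted p = 0.598).

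Id3 (chromosome 4, 136143497 to 136145755, plus strand) had 7.67, 8.54, 10.2 and 9.61 CPM in Control 1 to 4, 8.76 and 9.94 CPM in Unloading, and 22.8, 20.5 and 16.6 CPM in Reloading. The Reloading libraries did not overlap the others. Id3 rose 2.12-fold against Unloading (log2 1.08 ± 0.15, adjusted p = 6.74e-05, edgeR) and 2.19-fold against Control (1.13 ± 0.13, adjusted p = 5.17e-06).

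Id2 (chromosome 12, 25093799 to 25097140, minus strand) was the least abundant member, with 13 to 48 counts per library. It had 1.80, 2.32, 2.07 and 1.12 CPM in Control 1 to 4, 1.72 and 1.58 CPM in Unloading, and 2.66, 2.53 and 3.18 CPM in Reloading. The 3 Reloading libraries were the highest by a small margin. It passed narrowly at 1.69-fold against Unloading (log2 0.76 ± 0.28, adjusted p = 0.0421, edgeR) and 1.52-fold against Control (0.60 ± 0.23, adjusted p = 0.0493). These calls were lost in 10 and 13 of 18 alternatives. Against Unloading the call was lost on leaving out either Unloading library (0.81, adjusted p = 0.112, and 0.69, adjusted p = 0.193) or any 1 of Reloading 1 to 3 (0.80, 0.82 and 0.65, adjusted p 0.0555, 0.0573 and 0.118). Against Control it was lost on leaving out any 1 library other than Control 2, with adjusted p between 0.0557 and 0.165. With the replicate block by description number the values were 0.86 (adjusted p = 0.0795) and 0.63 (adjusted p = 0.0614).

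Of the inhibitory Smads, which feed back on the receptors, Smad7 rose on Reloading and Smad6 did not pass the test. Smad7, which restrains both BMP and TGF-β receptors, had 7.67, 5.80, 7.50 and 7.89 CPM in Control 1 to 4, 6.51 and 7.10 CPM in Unloading, and 9.59, 9.11 and 10.5 CPM in Reloading. All Reloading values were above all others. Smad7 rose 1.42-fold against Unloading (log2 0.51 ± 0.15, adjusted p = 0.0133, edgeR) and 1.35-fold against Control (0.43 ± 0.13, adjusted p = 0.0111). The first call was lost without Unloading 1 (0.45, adjusted p = 0.0887) and with the replicate block by description number (0.44, adjusted p = 0.077), and both calls were lost in DESeq2 (adjusted p 0.0668 and 0.0558). Without Control 2 and Reloading 1 the difference from Control was 0.35 (adjusted p = 0.0662).

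Smad6 (chromosome 9, 63953076 to 64022059, minus strand), which acts mainly on BMP receptors, had 3.38, 4.64, 5.36 and 3.43 CPM in Control 1 to 4. It had 5.24 and 5.46 CPM in Unloading, and 3.47, 5.21 and 5.50 CPM in Reloading. The groups overlapped in every comparison. Log2 differences were 0.33 ± 0.21 (adjusted p = 0.355, edgeR) for Unloading against Control, -0.17 ± 0.22 (adjusted p = 0.566) for Reloading against Unloading and 0.16 ± 0.19 (adjusted p = 0.547) for Reloading against Control. Whether Smad6 and Smad7 responded differently was not tested.

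To set genes beside each other, levels were taken as counts per kilobase of summed exon length, scaled by library as for CPM (RPKM). In Control the order was Tmem100 at 6.72, Bmpr2 at 6.45, Eng at 6.36, Id3 at 5.03, Id1 at 4.37, Acvrl1 at 2.35, Smad7 at 1.60, Bmp4 at 1.50, Smad6 at 1.31 and Id2 at 0.75 RPKM. Apart from Acvrl1 over Smad7 and Smad6 over Id2, each gene overlapped the next in this order over the 4 Control libraries. In Unloading Tmem100 stood first at 27.1 ± 5.99 RPKM (SD, n = 2), clear of Bmpr2 at 5.87 RPKM. In Reloading Id1 led with 17.5 ± 4.10 RPKM (SD, n = 3), followed by Eng at 12.2, Id3 at 11.1 and Tmem100 at 7.87 RPKM, and each of these overlapped the next. Bmpr2 followed at 3.96 RPKM, clear of Tmem100 and overlapping Acvrl1 at 3.37 RPKM.

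Markers of vessel cells rose on Reloading, as did 6 of the 9 tested members. The summed level of 13 endothelium markers was 269 to 304 CPM in Control, 265 to 276 CPM in Unloading and 428 to 517 CPM in Reloading (428 and 441 CPM without Reloading 1), and 11 of the 13 rose in both Reloading comparisons, with Tek and Erg not past the threshold. None of the 13 was at 0. In Unloading against Control 0 rose and 2 fell, Kdr (log2 -1.04 ± 0.18, adjusted p = 0.00304, edgeR), which encodes a VEGF receptor, and Vwf (-0.42 ± 0.10, adjusted p = 0.0206), which encodes von Willebrand factor. Of 8 smooth muscle and pericyte markers, 7 rose in both Reloading comparisons, and Rgs5 was higher in Unloading than in either other group. Their summed level was 344 to 378 CPM in Control, 393 to 435 CPM in Unloading and 432 to 459 CPM in Reloading. Of all tested genes, 18.5% rose in Reloading against Unloading and 22.1% against Control, and 5.50% fell in Unloading against Control.

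Summed levels of other cell type markers were also taken. The sum over 5 macrophage markers was 25.6 to 32.9 CPM in Control, 30.1 to 31.5 CPM in Unloading and 87.3 to 99.7 CPM in Reloading. That of 4 Schwann cell markers was 12.0 to 25.3, 15.3 to 19.8 and 43.4 to 55.8 CPM in the same order, and that of the 5 muscle fibre genes 124414 to 136853, 125093 to 127201 and 92718 to 101911 CPM. For 3 adipocyte markers the sums were 34.3 to 99.1, 62.3 to 78.0 and 89.6 to 110 CPM, and Control overlapped both other groups. Only 1 of these 3 passed in any comparison, Cfd in Reloading against Control (0.58 ± 0.21, adjusted p = 0.0382, edgeR), where 22.1% of all tested genes rose. For 5 fibro-adipogenic markers they were 363 to 488, 452 to 482 and 460 to 566 CPM, but single markers of this list moved in different directions. Pdgfra, a receptor gene of these cells, rose in Unloading against Control (log2 0.63 ± 0.11, adjusted p = 0.00377, edgeR) and fell in Reloading against Unloading (-0.62 ± 0.12, adjusted p = 0.000795), and Dcn, which encodes the matrix protein decorin, did likewise (0.59 ± 0.08, adjusted p = 0.000545, and -0.49 ± 0.08, adjusted p = 0.000277). Col1a1, a collagen gene, went the other way (-1.07 ± 0.31, adjusted p = 0.0399, and 1.68 ± 0.33, adjusted p = 0.000992). The part of these shifts in the members' changes was not tested.

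The members were also set against the mean log2 CPM of the 13 endothelium markers in the same library. Single markers differed widely around that mean. Against Unloading their log2 fold changes ran from 0.29 (Tek) to 1.82 (Kdr), a range that holds Eng, Id3, Id2, Acvrl1 and Smad7. Against Control they ran from 0.095 (Erg) to 1.05 (Pecam1), with Id1 (1.96) and Id3 (1.13) above. A gap from the mean is thus not a gap from each marker. Tmem100 lay at -0.58 ± 0.19 in Control on this relative log2 scale (mean ± SD, as for all that follow), at 1.52 ± 0.31 in Unloading and at -1.02 ± 0.48 in Reloading. The Unloading excess over Control was thus 2.10, beside 2.01 in the fit. Id1 moved from -1.86 ± 0.58 in Control and -1.90 ± 0.10 in Unloading to -0.48 ± 0.32 in Reloading, with all 3 Reloading values above the rest. Id3 moved from -0.97 ± 0.17 and -0.80 ± 0.14 to -0.48 ± 0.13, and Eng from 0.51 ± 0.19 and 0.28 ± 0.12 to 0.82 ± 0.06, again without overlap.

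Smad6 lay at -1.63 and -1.55 in Unloading on the relative scale, above all 7 other libraries, with at most -1.80 in Control and -2.20 in Reloading. Bmp4 lay between -3.28 and -2.56 in Reloading, below both Unloading values of -2.30 and -2.11, while its Control values overlapped both groups. Acvrl1, Id2 and Smad7 overlapped between all groups. Their Reloading means were -0.94, -3.25 and -1.50 beside Control means of -0.84, -3.22 and -1.29. Bmpr2 was 2.69 ± 0.26 in Control, 2.68 ± 0.01 in Unloading and 1.35 ± 0.27 in Reloading, a wider gap than in CPM. The subtracted endothelium mean was itself higher in Reloading (4.70 to 4.96) than in Unloading (4.04 and 4.06), which widens this gap. These are values without a test. Over the 9 libraries, log2 CPM of Eng, Id3, Id1, Acvrl1, Id2 and Smad7 had Pearson correlations of 0.975, 0.953, 0.923, 0.824, 0.809 and 0.752 with the endothelium mean, while Bmp4 had 0.094, Smad6 0.0078, Tmem100 -0.416 and Bmpr2 -0.955. The 9 points share their 3 groups and their scaling.

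**Figure D3:**
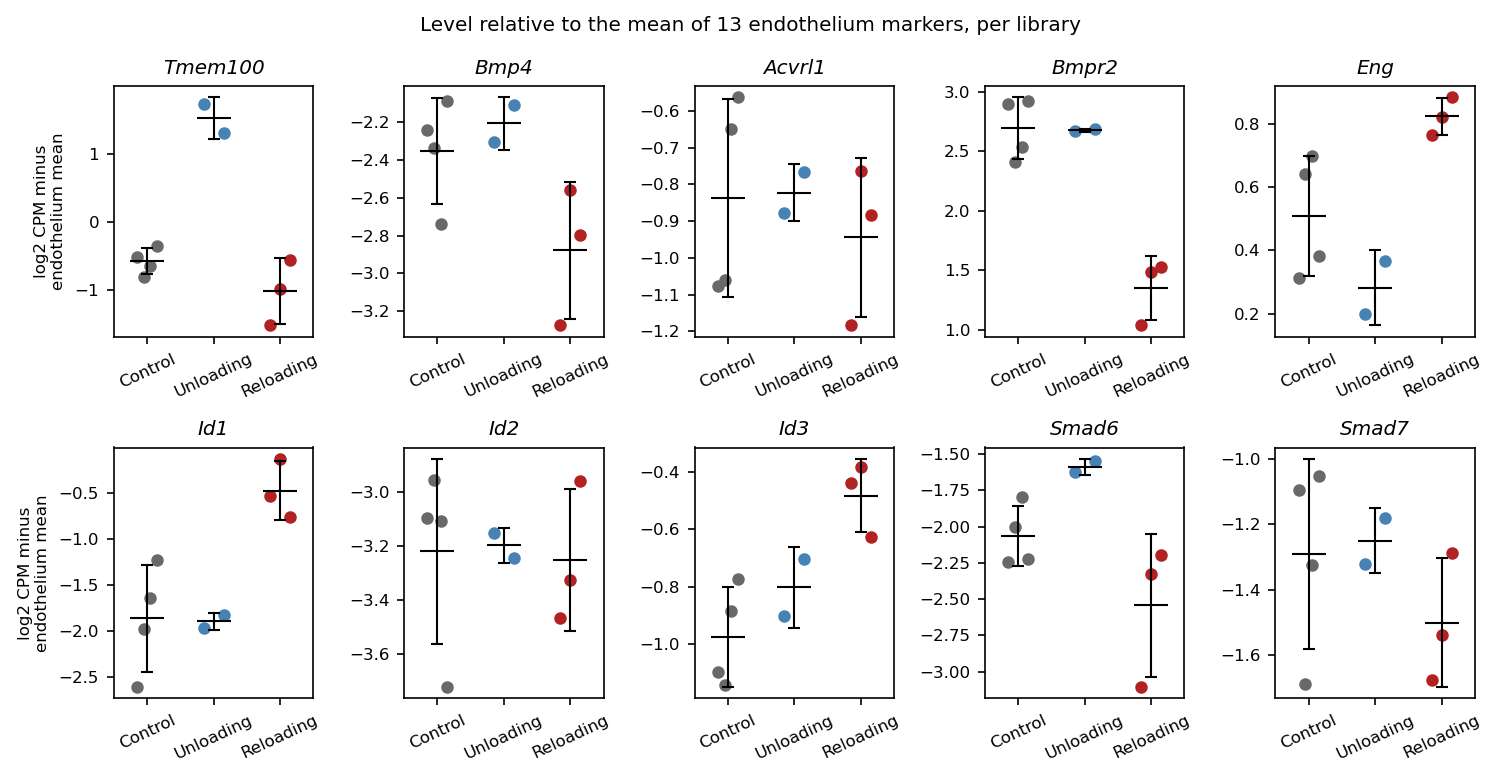
Log2 CPM of each gene minus the mean log2 CPM of 13 endothelium markers in the same library (axes differ by panel), with points for libraries and black bars for the group mean and SD (4 Control, 2 Unloading and 3 Reloading libraries). On this scale Tmem100 is high in Unloading (1.30 and 1.74), and Id1, Id3 and Eng lie above the other groups in Reloading. Bmpr2 is lower in Reloading than in the other groups, and Acvrl1, Id2 and Smad7 overlap between groups. Single markers differ widely around the mean, so a gap from it is not a gap from each marker.

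The 5 genes most like Tmem100 across the 9 libraries stood in neither the pathway list nor the marker lists. Those lists hold 57 and 47 genes, few beside all candidates, so their absence from 5 places was likely in any case. It does not show how Tmem100 relates to the pathway or to a cell type. The likeness also rests on the Unloading pattern for which Tmem100 was selected. Among 9872 genes with a symbol and a mean log2 CPM of at least 2, the highest Pearson correlations in log2 CPM were those of Qrich1 (0.970), Pou6f1 (0.970), Brpf3 (0.969), Mss51 (0.968) and Rbm33 (0.964). Mss51, a gene of skeletal muscle known for its link to mitochondrial metabolism, came nearest in size, with 88.1 to 104 CPM in Control, 392 and 628 CPM in Unloading and 73.2 to 208 CPM in Reloading. The other 4 moved by much less, as for Qrich1 with 32.2 to 34.6, 40.7 to 41.6 and 33.8 to 36.4 CPM. Of the other members, Smad6 had the highest correlation with Tmem100, at 0.525.

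A wider list of 57 other pathway genes was read in the same fit, of which 46 passed the filter on low counts. In Unloading against Control, where 4.40% of all tested genes rose and 5.50% fell, 5 of the 46 rose and 0 fell. They were the type I receptor Bmpr1a (log2 0.31 ± 0.08, adjusted p = 0.0271, edgeR), the type II receptors Acvr2a (0.52 ± 0.11, adjusted p = 0.0113) and Acvr2b (0.43 ± 0.13, adjusted p = 0.0411), the co-receptor Tgfbr3 (0.63 ± 0.10, adjusted p = 0.00239) and the signal carrier Smad5 (0.34 ± 0.09, adjusted p = 0.0239). The count was 3 without Control 2, 3 without Control 3 and 0 without Unloading 1, and 4 (3 higher and 1 lower) without Control 2 and Reloading 1. The call of Acvr2b was lost on leaving out any 1 Control or Unloading library (adjusted p between 0.0587 and 0.325), and that of Bmpr1a also without Unloading 2 (adjusted p = 0.119). The median over the 46 was 0.05.

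On Reloading these type I and type II receptor genes fell. Against Unloading, Bmpr1a fell by 0.68 ± 0.09 on the log2 scale (adjusted p = 2.75e-05, edgeR), Acvr2a by 0.98 ± 0.12 (adjusted p = 2.52e-05) and Acvr2b by 0.85 ± 0.13 (adjusted p = 0.00019). Their mean levels went from 137 to 85.9, from 54.8 to 27.7 and from 12.7 to 7.05 CPM. All 3 were also lower than in Control, by 0.37, 0.46 and 0.42, although with library totals in place of TMM these differences from Control did not pass (adjusted p 0.137, 0.107 and 0.225), and that of Acvr2b was also lost without Reloading 2 (adjusted p = 0.0553). The other type I receptors of the list, Bmpr1b (0.07 ± 0.16 against Unloading, adjusted p = 0.752) and Acvr1 (0.13 ± 0.13, adjusted p = 0.48), passed in no comparison. Thus 1 of 3 listed type I and 2 of 2 listed type II receptors fell. Of all tested genes, 19.0% fell against Unloading and 21.3% against Control.

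In all, 7 of the 46 rose and 7 fell against Unloading, beside 18.5% and 19.0% of all tested genes. Against Control 12 rose and 8 fell, beside 22.1% and 21.3%. Taken in both directions together, these 14 and 20 calls were close to or below the 37.5% and 43.5% over all genes. The medians were 0.06 and 0.07. With library totals in place of TMM the split against Unloading was 17 and 6. Id4, the remaining Id family gene, rose against Unloading (1.50 ± 0.35, adjusted p = 0.00344, edgeR) and Control (1.12 ± 0.29, adjusted p = 0.00519) at a low level of 2.00 CPM in Reloading. Without Control 2 and Reloading 1 the latter did not pass (0.86, adjusted p = 0.0626). Of the other target genes, Atoh8 rose against Control (0.64 ± 0.22, adjusted p = 0.0269), a call lost without Control 1, Control 2 or Reloading 3 (adjusted p 0.0661, 0.0761 and 0.176), and Hey1, Hes1 and Msx1 did not pass in any comparison.

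Smad1, a signal carrier, rose against Control (0.56 ± 0.12, adjusted p = 0.00179, edgeR), as did Smad5 (0.42 ± 0.08, adjusted p = 0.000501). Smurf1, a ubiquitin ligase that marks BMP Smads for degradation, rose 0.60 ± 0.10 against Unloading (adjusted p = 0.000234), and Twsg1, a secreted BMP binder, 0.50 ± 0.09 (adjusted p = 0.00052). Chrdl1, a BMP antagonist, rose against Control (0.97 ± 0.27, adjusted p = 0.00802). Crim1 fell by 0.59 ± 0.13 against Unloading (adjusted p = 0.0023), a call lost without Unloading 2 (-0.36, adjusted p = 0.0772), and the muscle co-receptor Hjv by 0.58 ± 0.08 (adjusted p = 7.75e-05).

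In the TGF-β branch, Tgfb1 had 3.64 CPM in Control, 3.14 CPM in Unloading and 8.20 CPM in Reloading (1.35 ± 0.25 against Unloading, adjusted p = 0.000601, edgeR), and Tgfb2 rose by 0.63 ± 0.14 (adjusted p = 0.00208), while the receptor gene Tgfbr1 fell by 0.53 ± 0.11 (adjusted p = 0.00152). The ID partners Tcf3 and Tcf12 rose by 0.51 ± 0.11 and 0.34 ± 0.07 against Control (adjusted p 0.00164 and 0.00142). Smaller differences rested on single libraries. Against Unloading, that of Smad4 (-0.22) was lost on leaving out any 1 library other than Control 2 or Reloading 3, that of Tcf12 (0.23) on leaving out any 1 library, and that of Tcf3 (0.40) without Unloading 1, Unloading 2 or Reloading 1. Against Control, that of Rgma (-0.24) was lost without Control 1, 2 or 3 or any 1 Reloading library, that of Smad3 (-0.25) without Control 3 or Reloading 1, and that of Tgfbr1 (-0.26) without Control 1, 3 or 4 or any 1 Reloading library. The tested ligands Bmp2, Bmp5 and Bmp6 passed in none of the comparisons, with Bmp6 at 7.22 to 11.9 CPM in all libraries.

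**Figure D4:**
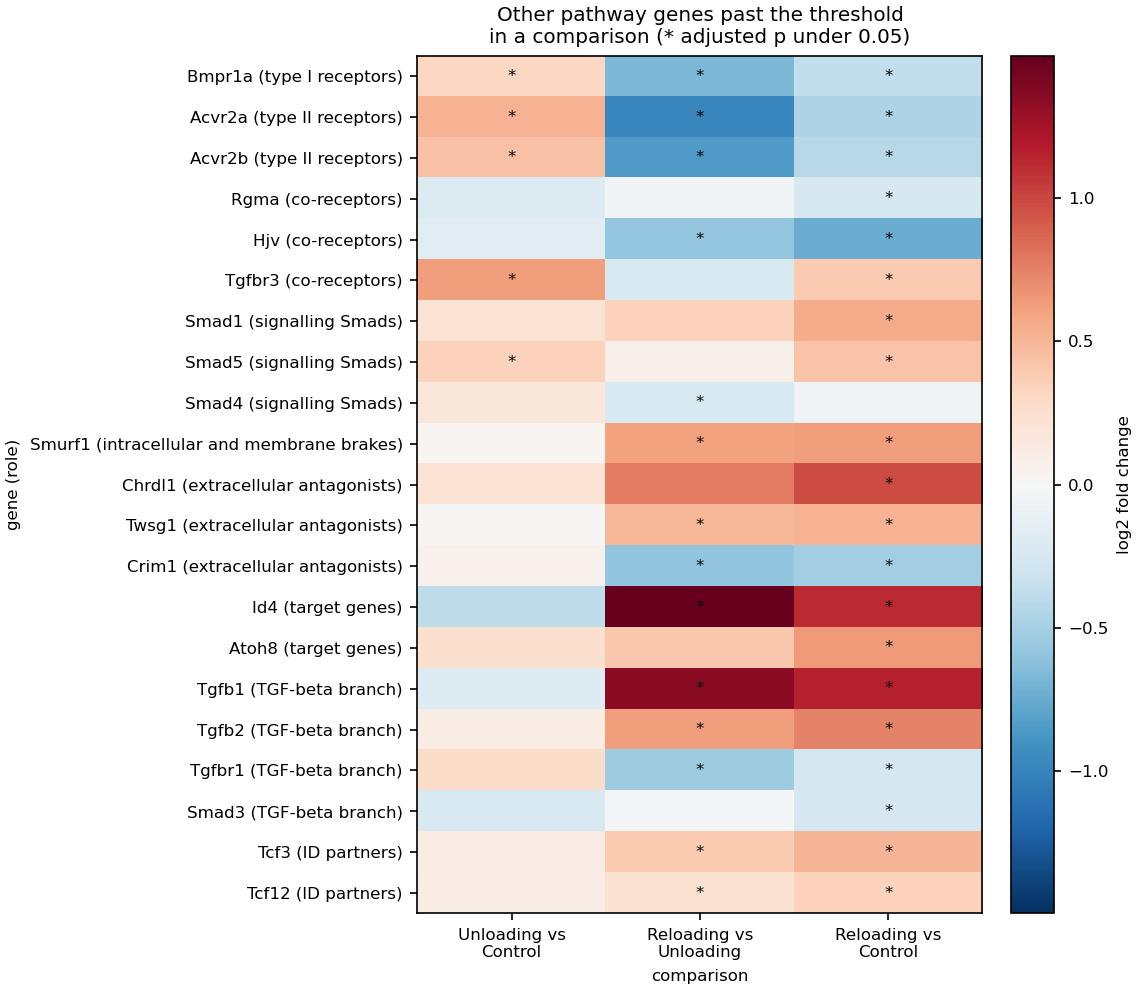
Log2 fold change (colour, red for higher and blue for lower in the first-named group) of the 21 other pathway genes that passed an adjusted p of 0.05 in at least 1 of the 3 comparisons, with an asterisk in each comparison where they passed (edgeR quasi-likelihood F-test). Bmpr1a, Acvr2a and Acvr2b are red in Unloading vs Control (0.31 to 0.52) and blue in both Reloading columns, and Id4 and Tgfb1 are the deepest red in Reloading vs Unloading (1.50 and 1.35).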

How the data were processed

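Gastrocnemius RNA was sequenced in 9 libraries (labels: paired-end; methods: single reads). The authors aligned reads with STAR 2.7.3a to GRCm38.p6 and, per the file headers, counted read pairs per gene unstranded with featureCounts 2.0.3 (Ensembl release 102), and the deposited table holds raw counts without normalization. From the authors' DESeq2 tables only the pairing of gene IDs with symbols was used, read beside a mean signal column (counts divided by size factors). Their fold changes and p-values were not used.

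Tests used edgeR 4.0.16 under R 4.3.3: filterByExpr (minimum count 10, minimum total 15), TMM scaling, 1 quasi-likelihood fit of all 9 libraries with the group as the only term, two-sided F-tests, and Benjamini-Hochberg adjustment over 14851 genes with a threshold of 0.05. SE was derived from the F statistic, log2 CPM used a prior count of 2, and the common biological coefficient of variation was 0.0927. One read pair was worth 0.0546 to 0.113 CPM. Limits at a count of 0 use 3 counts and cover counting error only. The procedure was run on simulated counts with the same spread for every gene and independent libraries. That run therefore does not cover spread that differs by gene or signal shared between libraries.

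The members and lists were chosen with earlier results of these data known. Genes named are all 10 members, pathway genes past the threshold, the 5 genes most correlated with Tmem100, and cell type markers. Genes named beyond this rule (Acvr1, Bmpr1b, Bmp2, Bmp5, Bmp6, Bmp10, Gdf2, Hey1, Hes1 and Msx1) were added after their values were seen.

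Alternatives were DESeq2 1.42.0, its size factors in edgeR, library totals, no filter, robust estimation, only the groups compared, replicate blocks, and leaving out libraries. Sample titles and descriptions number the Reloading replicates differently, and those of Control and Unloading alike. Deviations from group means of same-numbered libraries correlated at -0.201 to 0.0752 by title. By description the 3 Control and Reloading pairs correlated at 0.361, 0.143 and 0.155, and the pairs with an Unloading library at 0.0544, 0.0752 and 0.0172. The value of 0.361 is that of Control 2 and Reloading 1, which share the skin keratin signal. The labels do not say what these numbers mark. Blocks on them were therefore used only as alternatives, and the main tests left them out.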

Additional observations from a re-analysis of the deposited data

Results flagged for a closer look

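Among 18 levels examined in the 4 Control libraries (the 10 genes and the summed levels of 8 marker lists), 1 had a library far from the others. The summed level of the 4 skin keratinocyte markers was 216.9 CPM in Control 2 and between 2.86 and 3.95 CPM in the other 3 Control libraries. A gap of this kind turns up by chance in about 1 in 20 groups. For none of the 10 genes did a Control library stand apart in this way. Groups of 2 and 3 libraries were not examined.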

How the results depend on the processing

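Of 540 values of single members under 18 alternatives, 500 kept their direction and side of the threshold, 29 lost the threshold, 2 gained it and 9 changed sign. The called pathway genes gave 615 of 702 unchanged, 85 weaker and 2 reversed. With library totals in place of TMM, the median of all genes moved from 0.0262 to 0.274 for Reloading against Unloading and from 0.0134 to 0.252 against Control, and higher genes made up 82.8% and 80.2% of calls in place of 49.3% and 50.9%. Under that scaling the pathway list gave 23 calls against Unloading, Smad6 stood at 0.076 and Smad4 at 0.024 against Unloading, and Rgma at 0.0032 against Control. Without a filter on low counts, Unloading against Control gave 1 member (Eng, -0.34, adjusted p = 0.0428, edgeR) and 8 pathway genes.

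Leaving out single libraries gave 0 to 1 members and 0 to 5 pathway genes in Unloading against Control. Bmp4 ran there from -0.065 to 0.12, below 0 without Control 3 or Unloading 2. Without Reloading 2 it was also below 0 in both Reloading comparisons, which ran from -0.058 to 0.20 and from -0.018 to 0.25. Id3 in Unloading against Control ran from -0.053 to 0.13, below 0 without Control 1 or Unloading 2. Where an Unloading library was left out, the remaining one was assumed to vary like the other groups. The cause of these shifts was not tested.

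A replicate block by the description number left 4 members past the threshold in Reloading against Unloading (Eng, Id1, Id3 and Bmpr2) and turned Acvrl1 to 0.062 in Unloading against Control. By the title number, for which no pairing is stated either, the block left 6 members in each Reloading comparison and turned Smad7 to 0.039 in Unloading against Control. A prior count of 0.5 moved log2 CPM of a member by at most 0.135 (Id2). Low counts limit Id2, Bmp4 and Smad6, with as few as 13, 30 and 30 counts in a library, and Unloading rests on 2 libraries.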
